A study of Mus musculus with 21 samples.

Results

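The comparison described here is between Nes low mesenchymal cells that lay in leukemic bone marrow without taking up the leukemic label (early ch-) and Nes low cells of mice without leukemia (ctrl). Its members were chosen by the sample titles: 6 early ch- libraries and 3 ctrl libraries, 9 of the 21 libraries in the table. All mice were Nestin+ NSG mice, an immunodeficient strain in which Nestin drives green fluorescent protein. NSG mice lack functional B, T and NK cells but keep their own granulocytes, monocytes and red cells. The ch- mice received a human AML cell line without conditioning at 8 to 12 weeks of age and were analyzed early in leukemic progression. In 3 libraries (527, 528 and 529) the line was HL60, and in the other 3 (543, 544 and 546) it was ML1, so that each kind of leukemia is represented by a single established line. Both lines released sLP-mCherry, a red fluorescent protein made lipid-permeable so that neighboring cells take it up, and ch- cells were sorted for its absence. The ctrl mice (libraries 373, 374 and 375) were left unengrafted, and their labels carry the same age range, worded as an age at transplantation. The paper counts more controls of this kind than the table holds, and the others were not used here. The 6 early ch+ libraries, from cells that had taken up the label, and the 6 late libraries serve as a further reference for single values.

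Nes low cells are perivascular stromal cells of the bone marrow that overlap with CXCL12-abundant reticular (CAR) cells. They secrete CXCL12, stem cell factor and angiopoietin-1, which hold hematopoietic stem cells in the marrow, and they can form bone, fat and cartilage. Collagenase digestion of whole bone pieces also frees cells of the growth plate, the bone surface and the joint. Cells carrying CD45 were depleted to exclude blood cells, and the rest were stained for blood, red cell and endothelial markers before sorting.

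The values are regularized log2 expression values made by the authors, and a difference of 1 is a change by a factor of 2 before the regularization. Read counts cannot be read back from them, which leaves the depth per library unknown, and the changes of weakly expressed genes are understated. Converted back from the log2 scale, the values summed to 11.9 to 14.2 megacounts of normalized signal in ctrl and to 12.3 to 14.7 in ch-. Pearson's r across the tested genes, which are not independent replicates, was 0.938 to 0.948 between ctrl libraries and 0.935 to 0.959 between ch- libraries. Of the 9 libraries, 3 stood apart. Library 543 did so on the fourth principal component, which held 4.91% of the variance (score 50.4). Ctrl 375 did so on the fifth, which held 4.80% (score −46.1, against 24.7 and 12.8 in the other controls). Library 544 differed in AY036118, a gene of the rRNA locus. The labels give no sorting or sequencing date, so a batch and the group cannot be told apart. They also do not say which libraries came from the same mouse.

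The genes behind the sort were checked first. Nes, the gene whose promoter drives the reporter, measured 7.14, 7.61 and 7.43 in ctrl and 7.01 to 7.57 (median 7.41) in ch-, a log2 difference of −0.08 (SE 0.27, adjusted p = 0.945). Pecam1, which encodes CD31, measured 4.87 to 5.93 (median 5.73) in ch- and 5.33 or more in every control, a log2 difference of −0.05 (adjusted p = 0.975). For both genes the groups overlapped. Ptprc, which encodes CD45, was low in ctrl at 2.49, 2.58 and 2.61 and ran from 2.67 to 5.92 (median 4.18) in ch-, a log2 difference of 1.65 (adjusted p = 0.12). All 6 ch- libraries lay above ctrl for Ptprc. The difference passed the test in the fit of 7 groups (adjusted p = 0.0323) and also without ch- 527 or 528. The Y-linked genes Ddx3y, Eif2s3y, Kdm5d and Uty stayed at or below 2.62 in all 21 libraries and were not tested, while Xist was high throughout, at 12.98 to 13.55 in ctrl and 13.68 to 13.95 in ch-. Xist, the only tested member of the sex-linked list, was called at a log2 difference of 0.65 (adjusted p = 0.0623). That call was lost without ctrl 373 or 374 or without ch- 527, 529 or 544 (adjusted p up to 0.298), and also when libraries were rescaled to a common total (adjusted p = 0.235).

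Of 26852 genes, 12980 had a mean of at least the log2 of 10 over all 21 libraries and were tested. Between ch- and ctrl, 249 genes were called at an adjusted p below 0.1 (1.92% of those tested), 147 of them higher in ch- (1.13%) and 102 lower (0.786%). Counts of calls in the gene lists are to be read beside these shares. The median log2 fold change was 1.22 among the higher genes and −1.25 among the lower genes, against 0.01 over all tested genes. All 6 ch- libraries lay above all 3 ctrl libraries for 424 tested genes (3.27%) and below them for 315 (2.43%), which included 121 of the 147 called higher and 78 of the 102 called lower. The genes called higher included transcripts of neutrophils, red cells and the mitochondrial genome. Among called genes whose groups did not overlap, AY036118, Prg4, Rtn1 and Fgl2 had the largest falls. A fit of 7 groups, which separates the cell lines within each stage, called 353 genes, 205 higher and 148 lower. Single controls carried part of the count, which was 136 without ctrl 374 and 136 without ctrl 375, and 162 without ch- 543 and 544. Higher genes made up 59.0% of the calls with the values as deposited and 41.9% after rescaling to a common library total, so which direction holds more calls depends on that step. In all 9 fits that left out a single library, 70 of the 249 genes were called, 46 higher and 24 lower.

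**Figure D1:**
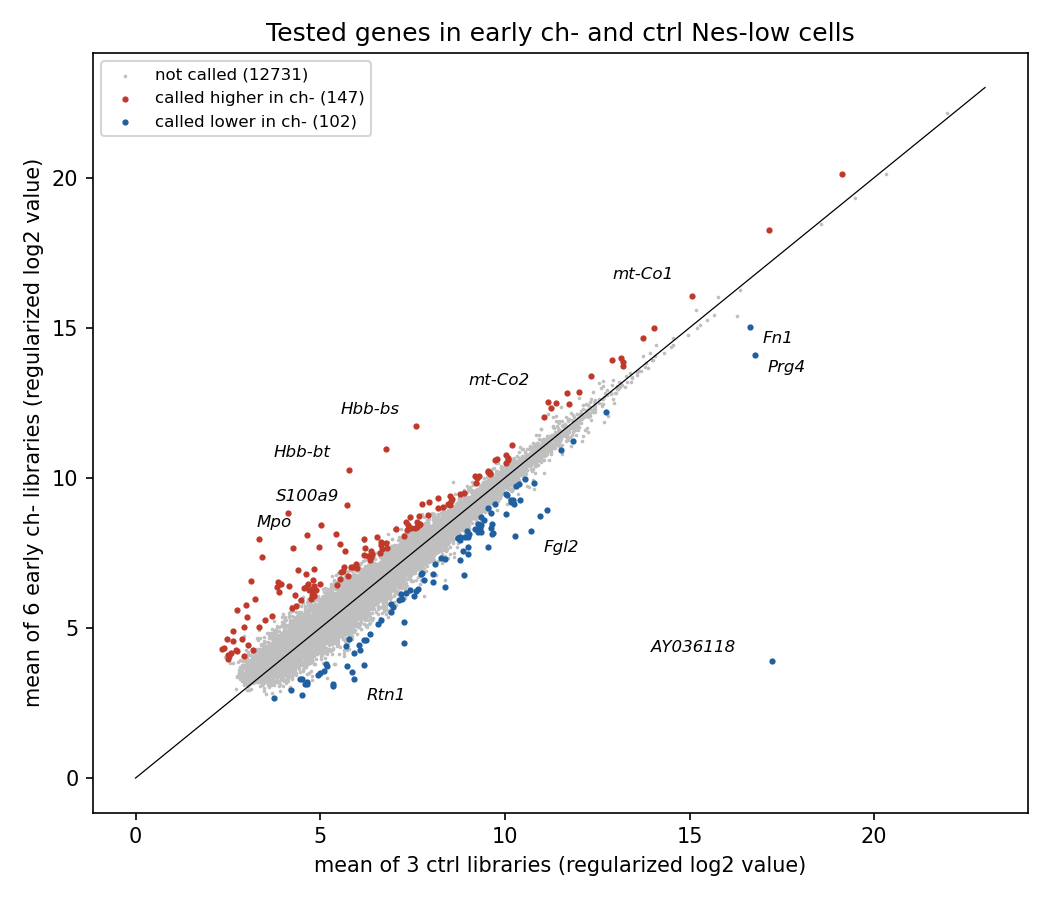
Each point is a tested gene, with its mean regularized log2 value over 3 ctrl libraries on the horizontal axis and over 6 early ch- libraries on the vertical axis, red where called higher (147), blue where called lower (102) and gray otherwise. Neutrophil and red cell genes such as S100a9 and Hbb-bt lie far above the line of equal values, and Prg4, Fgl2 and Fn1 lie below it.

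Among the genes called higher, the neutrophil transcripts S100a9 and S100a8 had the largest rises, followed by red cell genes and then by granule genes. S100a9, a subunit of the calprotectin of neutrophil cytosol (ENSMUSG00000056071, GRCm38 chromosome 3 from 90692632 to 90695721), measured 4.19, 3.72 and 4.50 in ctrl and 8.41 to 9.61 (median 8.72) in ch-. It rose by 4.68 on the log2 scale (SE 0.36, adjusted p = 4.94e-10). Every ch- library lay far above every control, with ML1 library 546 the highest. S100a8, the partner subunit, rose by 4.63 (SE 0.34, adjusted p = 1.53e-10), from 3.17, 3.40 and 3.47 in ctrl to 7.42 to 8.67 (median 7.83) in ch-. Mpo, the myeloperoxidase of primary granules, measured 3.26, 3.48 and 7.16 in ctrl and 7.41 to 9.16 (median 8.11) in ch-, and rose by 3.45 (SE 0.53, adjusted p = 0.000228). Ctrl 375 was the high control for Mpo and came close to the lowest ch- library. The same control was high for Ngp, a secondary granule protein, at 7.85 against 3.56 and 3.63 in the other controls, and for Lcn2, the siderophore-binding lipocalin of granules, at 5.77 against 3.41 and 3.61. In ch-, Ngp ran from 7.91 to 9.22 (median 8.34) and rose by 3.40 (SE 0.58, adjusted p = 0.00088), and Lcn2 ran from 6.69 to 9.11 (median 7.51) and also rose by 3.40 (SE 0.48, adjusted p = 7.36e-05). Chil3, a chitinase-like lectin of myeloid cells, rose by 3.45 (SE 0.42, adjusted p = 7.94e-06), from 2.97, 3.16 and 3.22 to between 5.43 and 7.62 (median 6.80), with no overlap.

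The list of neutrophil and granule genes held 26 genes, of which 21 were tested, with a median log2 difference of 1.94. Among them 15 were called higher, against 1.13% of all tested genes, and none lower. The filter admits a gene through the libraries in which it is high, and 9 of those called lay below it in every control. Counts of such lists, which include the pan-blood, red cell and skeletal muscle lists, describe the list and support nothing by themselves. The neutrophil count was 9 without ctrl 374, 10 with no filter and 7 with a filter at a mean of 5. Elane, the neutrophil elastase, rose by 2.86 (adjusted p = 0.00845), and Ltf, which encodes lactoferrin, by 2.65 (adjusted p = 0.00011). Anxa1, the most abundant gene of the list, is also made by stromal cells and had a log2 difference of −0.38 (adjusted p = 0.39). Summed over the list and put back on the log2 scale, the level was 10.40, 10.55 and 10.91 in ctrl and 11.21 to 12.23 in ch-. The labelled cells had similar values: the median of the list in ch+ minus ch- was 0.12, and S100a9 ran from 8.04 to 9.70 (median 9.04) in ch+ (difference from ch- 0.12, adjusted p = 0.898). In late libraries S100a9 lay at 3.11 to 4.34 (median 3.56). Every comparison of ch+ or late with ch- shares the 6 ch- libraries with the comparison against ctrl. A gene chosen for a low ch- value therefore leans higher in those comparisons, and one chosen for a high value leans lower.

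Markers of other blood cells were mostly too low to test. The pan-blood list had 8 of 20 genes tested, 2 called higher and a median log2 difference of 0.74, with Lcp1, an actin bundler of leukocytes and its most abundant member in ch- though not in ctrl, at 1.08 (adjusted p = 0.101), which passed the test without ctrl 374 and with either other filter or no variance trend. Both called genes lay below the filter in every control. The list's count was 1 without ctrl 373 or 375. Its summed level was 7.59, 8.00 and 7.90 in ctrl and 8.01 to 9.02 in ch-. Rac2, a GTPase of blood cells, rose by 1.91 (SE 0.39, adjusted p = 0.00757), from 2.58, 2.66 and 2.69 to between 3.80 and 5.59 (median 4.52), and kept its call with no filter. Among monocyte and macrophage genes, 6 of 20 were tested and 1 was called higher, with a median of 0.34. The called gene was Lyz2, a lysozyme of myeloid cells, at a log2 difference of 1.27 (adjusted p = 0.0475), a call lost without ctrl 374, ctrl 375 or ch- 546 (adjusted p up to 0.249), while Mpeg1 had a difference of 1.28 (adjusted p = 0.174). The macrophage genes C1qa and Adgre1 lay at −1.48 to −1.38 and 0.33 to 0.43 across the 9 libraries, with almost no spread. The megakaryocyte and platelet list had 2 of 12 genes tested and 0 called, with a median of 0.26. No member of the lymphocyte list (15 genes) or of the mast cell, basophil and eosinophil list (12 genes) reached the filter. The part of blood cell markers in the other results was not tested.

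Red cell transcripts rose alongside the granule genes. Hbb-bt, an adult beta-globin (ENSMUSG00000073940, chromosome 7 from 103812524 to 103813996), measured 6.15, 4.77 and 6.41 in ctrl and 9.66 to 10.59 (median 10.35) in ch-, and rose by 4.50 (SE 0.29, adjusted p = 1.24e-11). Hbb-bs, the other adult beta-globin, measured 7.15, 7.73 and 7.90 in ctrl and 11.17 to 12.08 (median 11.76) in ch- and rose by 4.12 (SE 0.24, adjusted p = 2.41e-12). Hba-a1, an alpha-globin, spread more widely among controls, at 5.63, 6.67 and 8.03, and rose by 4.19 (SE 0.39, adjusted p = 2.45e-08) to between 10.30 and 11.67 (median 10.98). None of these globin genes overlapped between the groups, and globin transcripts were present in every control. Slc4a1, the band 3 anion exchanger of the red cell membrane, rose by 3.96 (SE 0.35, adjusted p = 1.16e-08), from 3.30, 3.34 and 3.60 to between 6.43 and 7.62 (median 7.54), with ML1 library 543 well below the other ch- libraries. Alas2, which starts heme synthesis in red cell precursors, rose by 2.56 (SE 0.37, adjusted p = 0.00011). Of the 25 red cell genes, 20 were tested, with a median log2 difference of 1.37. Among them 12 were called higher, against 1.13% of all tested genes, and none lower. Their count was 10 with no filter and 8 without ctrl 373. Their summed level, of which Hbb-bs was the most abundant part in ch-, was 10.16, 10.55 and 10.69 in ctrl and 12.71 to 13.54 in ch-. The list had a median of 0.08 in ch+ minus ch- and of −2.17 in late minus ch-. As the samples are bulk libraries, more cells of a type and more RNA per cell cannot be told apart, nor can fewer cells and less RNA per cell.

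Transcripts of the mitochondrial genome formed another block that was higher in ch-. This genome encodes core subunits of the respiratory chain, while the remaining subunits come from the nucleus. mt-Co2, a subunit of cytochrome c oxidase, measured 11.16, 11.04 and 11.30 in ctrl and 12.38 to 12.69 (median 12.50) in ch-, and rose by 1.36 (SE 0.14, adjusted p = 2.76e-07). mt-Co1, its catalytic subunit and the most abundant member of the list, rose by 1.01 (SE 0.16, adjusted p = 0.000496), from 15.03, 14.98 and 15.19 to between 15.54 and 16.38 (median 16.15). The ch- libraries of both cell lines lay above every control for both genes. The 13 mitochondrially encoded genes were all tested and had a median log2 difference of 0.94. Of them, 10 were called higher, against 1.13% of all tested genes. The exceptions were mt-Atp6 at 0.72 (adjusted p = 0.147), mt-Atp8 at 0.58 (adjusted p = 0.189) and mt-Nd3 at −0.78 (adjusted p = 0.645). Both mitochondrial rRNAs, which were not on the list and were chosen after their values were seen, were also called, mt-Rnr1 at 1.09 (adjusted p = 0.000228) and mt-Rnr2 at 1.00 (adjusted p = 0.0116). None of the 30 nuclear respiratory chain genes was called by limma, with a median of −0.03 and values from −0.54 for Sdhc, a subunit of complex II, to 0.42. The most abundant of them, Atp5b of ATP synthase, had a log2 difference of −0.13 (adjusted p = 0.759).

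The share of the summed signal that came from mitochondrially encoded genes was 0.735%, 0.686% and 0.717% in ctrl and 1.06% to 1.53% in ch-. It was 1.26% to 1.64% in ch+, where the list differed from ch- by a median of −0.07. Mitochondrial transcripts, like those of blood cells, thus stood at similar levels in both early groups. Their part in the other results was not tested.

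**Figure D2:**
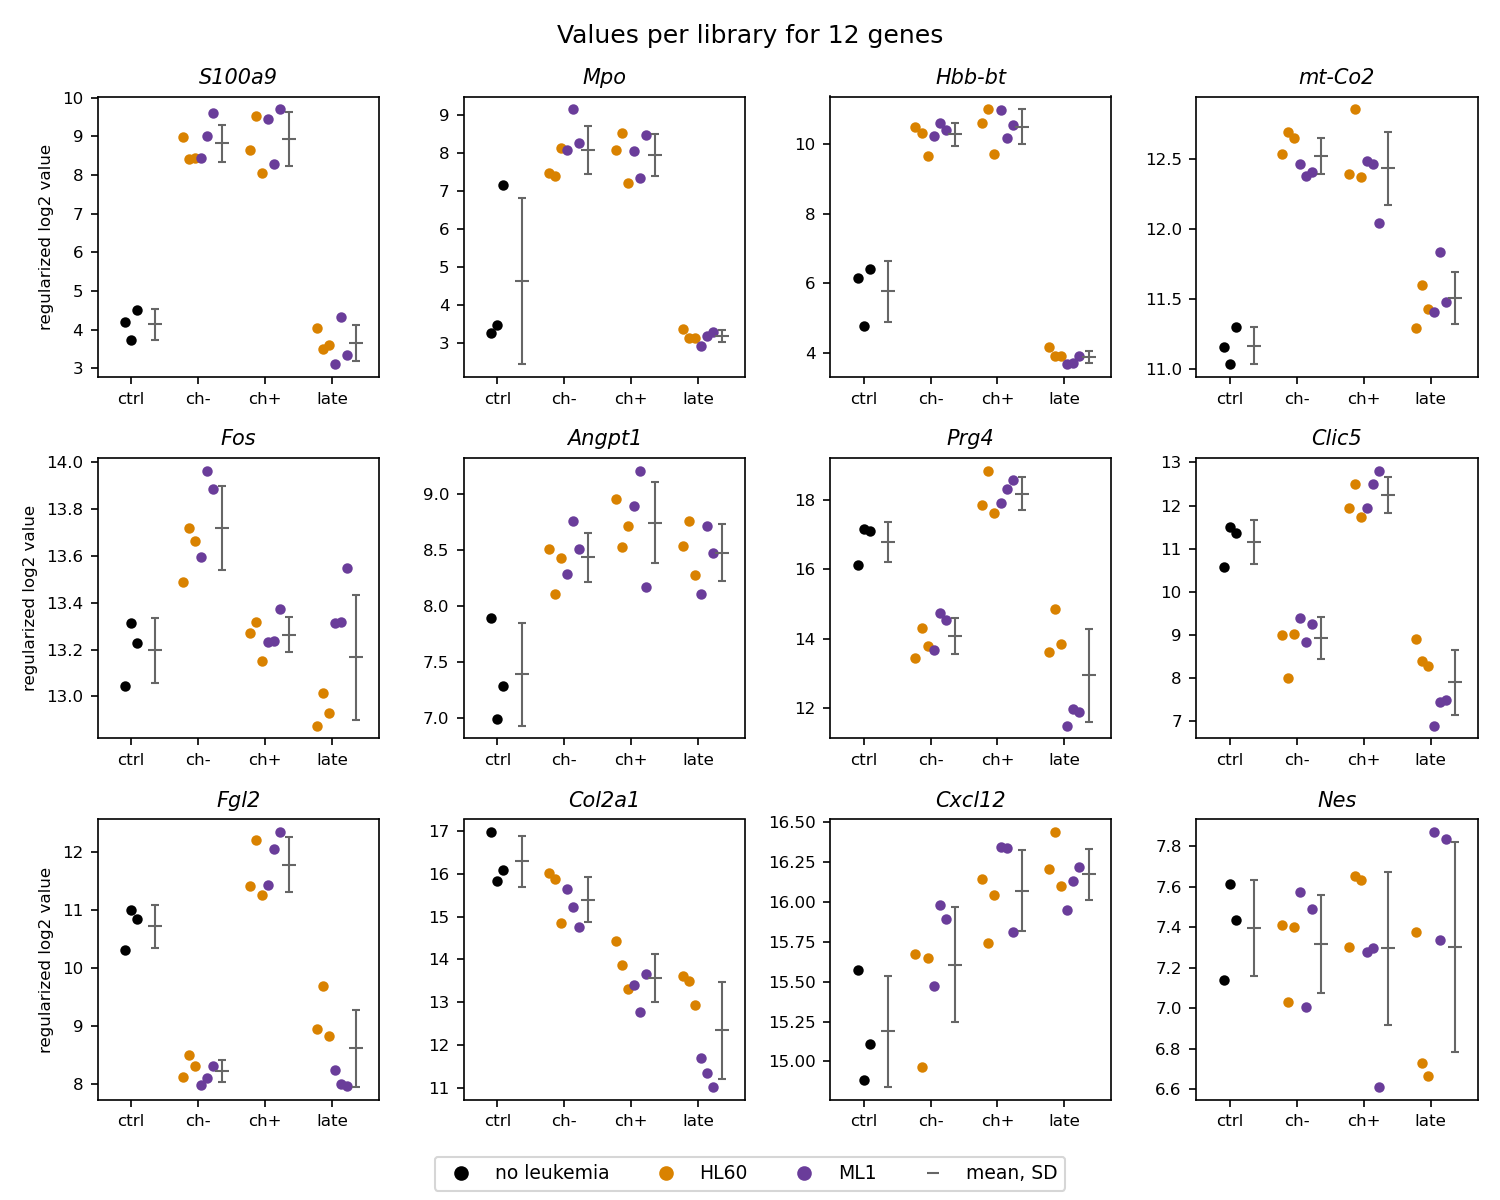
Each panel gives the regularized log2 value of a gene in every library (points, colored by leukemic cell line) of the ctrl, early ch-, early ch+ and late groups, with the group mean and SD beside the points. S100a9, Hbb-bt and mt-Co2 are higher in both early groups than in ctrl, whereas Prg4, Clic5 and Fgl2 are lower in ch- than in ctrl and high in ch+.

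For some of the genes that fell in ch-, ch+ values are given beside those of ctrl, as a description without a test. Prg4, which encodes lubricin, the lubricant of joint surfaces (ENSMUSG00000006014, chromosome 1 from 150449412 to 150466165), measured 16.11, 17.15 and 17.09 in ctrl and 13.44 to 14.73 (median 14.04) in ch-. It fell by 2.70 on the log2 scale (SE 0.47, adjusted p = 0.00121), with no overlap and with both cell lines low. In ch+ Prg4 ran from 17.61 to 18.83 (median 18.10), above every control, and in late cells from 11.50 to 14.85 (median 12.79). Fgl2, a fibrinogen-like prothrombinase and immune regulator (ENSMUSG00000039899, chromosome 5 from 21372642 to 21378374), measured 10.30, 11.00 and 10.85 in ctrl and 7.98 to 8.50 (median 8.22) in ch-, and fell, with a log2 difference of −2.50 (SE 0.28, adjusted p = 1.4e-06). The ch- libraries lay close together and well below every control, and ch+ libraries lay above both groups at 11.25 to 12.34 (median 11.74). Clic5, an intracellular chloride channel protein tied to the actin cortex, measured 10.57, 11.51 and 11.37 in ctrl and 8.00 to 9.39 in ch-, and fell by 2.23 (SE 0.33, adjusted p = 0.00011). All ch- values lay below the controls, with HL60 library 528 the lowest. Clic5 too was highest in ch+, at 11.73 to 12.81 (median 12.22).

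F13a1, the catalytic chain of coagulation factor XIII, which crosslinks fibrin, fell by 2.22 (SE 0.43, adjusted p = 0.00451), from 10.41, 11.20 and 11.27 in ctrl to between 8.45 and 9.05 (median 8.74). Htra4, a secreted serine protease, fell by 2.21 (SE 0.43, adjusted p = 0.0049), from 9.94, 10.34 and 10.57 to between 7.54 and 9.06 (median 7.98). Pla1a, a phospholipase that acts on phosphatidylserine, fell by 2.11 (SE 0.32, adjusted p = 0.000158), from 8.54, 9.18 and 8.92 to between 6.26 and 7.91 (median 6.57). In each of these 3 genes the highest ch- library stayed below the lowest control. Their ch+ libraries all lay above every control, at 11.56 to 12.09 for F13a1, 10.83 to 12.05 for Htra4 and 9.55 to 10.60 for Pla1a. Rtn1, a reticulon of the endoplasmic reticulum, measured 6.03, 5.45 and 6.25 in ctrl and 2.69 to 4.32 (median 3.19) in ch- and fell by 2.61 (SE 0.45, adjusted p = 0.00112). Rab37, a GTPase of secretory vesicles, fell by 2.41 (SE 0.44, adjusted p = 0.00207), and Stac2, a regulator of L-type calcium channels, by 2.28 (SE 0.42, adjusted p = 0.00263). Ch- libraries ran from 3.16 to 5.07 for Rab37 and from 2.84 to 3.65 for Stac2, and the controls, at 6.32, 6.66 and 5.58 and at 4.43, 6.20 and 5.40, were all higher. In ch+, Rtn1 ran from 4.86 to 7.21, Rab37 from 6.38 to 7.65 and Stac2 from 5.18 to 6.99, and each range overlapped the controls. Sv2c, a synaptic vesicle protein, and Gldn, which encodes gliomedin, fell by 2.78 (adjusted p = 0.0103) and 2.08 (adjusted p = 0.0362). The call of Sv2c was lost without ctrl 374 (adjusted p = 0.174), and that of Gldn without ctrl 374 or ctrl 375 (adjusted p up to 0.178).

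Prg4, Clic5 and Htra4 are known from the fibroblasts that line joints, and a list of 11 such genes was written after these values had been seen, so it receives no test. Of them, 8 were called lower, against 0.786% of all tested genes, or 5 without ctrl 374 or ctrl 375 or with no filter. The median log2 difference was −1.35, beside 0.01 over all tested genes. Creb5, a transcription factor of the joint lining, fell, with a log2 difference of −1.20 (SE 0.19, adjusted p = 0.000491), from 9.04, 10.02 and 9.93 to between 8.22 and 8.75. Tspan15, a tetraspanin that guides the protease ADAM10, fell by 2.02 (SE 0.41, adjusted p = 0.00649), from 7.96, 8.40 and 8.78 to between 5.41 and 7.17. Hbegf, a ligand of the EGF receptor, fell by 1.30 (adjusted p = 0.037), a call lost without ctrl 374 or 375 (adjusted p up to 0.232). Has1, a hyaluronan synthase, had a difference of −1.48 (adjusted p = 0.124), and Col22a1, a collagen of tissue junctions, of −0.35 (adjusted p = 0.811). The mean of the 11 log2 values was 9.38 to 10.22 in ctrl, 8.16 to 8.63 in ch- and 10.57 to 11.21 in ch+. In late libraries it was 6.68 to 8.13, below every ch- library. Further lists written after the values were seen gave little: of 8 tendon genes 5 were tested and none was called, or 1 in the fit of 7 groups (median −0.82), and of 9 tissue fibroblast genes 8 were tested and 1 was called lower, Ly6a, which is also on the endothelial list (median −0.31).

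Some genes of the matrix and of secreted enzymes were chosen after their values were seen, without a list, and went in both directions. Fn1, which encodes fibronectin, measured 16.40, 16.76 and 16.75 in ctrl and 14.76 to 15.20 (median 15.05) in ch-, and fell by 1.60 (SE 0.24, adjusted p = 0.000118). It reached 17.23 to 18.20 (median 17.58) in ch+. Enpp2, the autotaxin that makes lysophosphatidic acid, fell by 1.22 (SE 0.22, adjusted p = 0.00242), and Htra1, a secreted protease of matrix proteins, by 0.94 (SE 0.18, adjusted p = 0.00297). Vcan, which encodes the matrix proteoglycan versican, rose by 0.87 (adjusted p = 0.0336), and Pappa, a secreted protease, by 0.89 (adjusted p = 0.0209). The call of Vcan was lost without ctrl 373 or 374 (adjusted p up to 0.186), and that of Pappa without ctrl 374 (adjusted p = 0.211). The matricellular genes Ccn1 and Ccn2, both known targets of YAP, moved in opposite directions. Ccn1 rose by 1.04 (SE 0.13, adjusted p = 1.02e-05), from 12.35, 12.09 and 12.58 to between 13.26 and 13.54 (median 13.35), while Ccn2 fell by 0.53 (SE 0.12, adjusted p = 0.0189), from 12.74, 12.75 and 12.69 to between 12.09 and 12.40 (median 12.14). For neither gene did the groups overlap.

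Among the hematopoietic niche genes of CAR cells, the calls were all higher in ch-. All 24 were tested and 19 had a positive difference, while 48.8% of all tested genes had a negative one. The median log2 difference was 0.41. Of the 24, 2 were called higher, against 1.13% of all tested genes, and none lower. The count was 4 in the fit of 7 groups, 9 for ML1 against ctrl, 6 without ch- 528, 1 after rescaling, without ctrl 375 or without ch- 529, 544 or 546, and 0 without ctrl 374. Angpt1, the ligand of the TIE2 receptor on stem and endothelial cells (ENSMUSG00000022309, chromosome 15 from 42424723 to 42676977), measured 7.90, 6.99 and 7.28 in ctrl and 8.11 to 8.76 (median 8.47) in ch-, and rose by 1.04 (SE 0.22, adjusted p = 0.00951). Its ch- libraries all exceeded the controls, though the call was lost without ctrl 374 (adjusted p = 0.138). Grem1, an antagonist of bone morphogenetic proteins, rose by 0.88 (SE 0.24, adjusted p = 0.0589), with overlap, and lost its call without ctrl 374 or 375 or without ch- 529, 544 or 546 (adjusted p up to 0.379). Cxcl12, the most abundant gene of the list and the chemokine that retains stem cells, measured 15.57, 14.89 and 15.11 in ctrl and 14.97 to 15.98 (median 15.66) in ch-, a log2 difference of 0.42 (SE 0.19, adjusted p = 0.374). Lepr, the leptin receptor that marks these cells, had a difference of 0.39 (adjusted p = 0.4), and Kitl, which encodes stem cell factor, of 0.53 (adjusted p = 0.239). Cxcl12 and Lepr overlapped between the groups. Late minus ch-, the list had a median of 0.62, with 18 genes called higher and 3 lower, in a comparison with 2920 calls (22.5%).

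Genes of the fat lineage included a clear rise of its master regulator. Pparg, the nuclear receptor that drives adipocyte formation, measured 6.44, 6.66 and 5.55 in ctrl and 6.97 to 7.95 (median 7.86) in ch-, and rose by 1.45 (SE 0.27, adjusted p = 0.00314). The lowest ch- library, HL60 library 528, lay just above the highest control. Pparg was the 1 gene called among 6 tested of 12 adipocyte genes, which had a median of 0.29, and Apoe, their most abundant member, had a log2 difference of 0.33, which passed the test for ML1 against ctrl. Osteoblast and osteocyte genes were close to ctrl, with 19 of 20 tested, 1 called and a median of −0.04. Col1a1, their most abundant gene and a main collagen of bone, had a log2 difference of −0.20 (adjusted p = 0.911). Bglap, which encodes osteocalcin, measured 15.25, 15.27 and 15.36 in ctrl and 14.78 to 15.33 in ch- (difference −0.21, adjusted p = 0.924). The called gene was Mepe, a matrix protein of osteocytes, at 1.25 (adjusted p = 0.0972). Its call was lost in 8 of the 9 fits that left out a library, all but the one without ch- 528 (adjusted p up to 0.369), and after rescaling to a common total (adjusted p = 0.12).

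Most cartilage genes had negative differences. Of 23 chondrocyte genes 21 were tested, and 20 of these had a negative difference, against 48.8% of all tested genes. The median log2 difference was −0.83, and 1 gene was called lower. The count was 3 in the fit of 7 groups and 5 with the 9 libraries alone. The called gene was Sox5, which with Sox6 assists Sox9 in cartilage formation. It measured 9.05, 8.94 and 9.03 in ctrl and 5.84 to 8.57 (median 7.71) in ch- and fell by 1.53 (SE 0.34, adjusted p = 0.0162), with HL60 libraries at both ends of the ch- range. Col2a1, the main collagen of cartilage and the most abundant of the list, measured 16.96, 15.83 and 16.08 in ctrl and 14.76 to 16.02 (median 15.42) in ch-, a difference of −0.90 (adjusted p = 0.408). It was called lower in the fit of 7 groups (adjusted p = 0.0672), and the groups overlapped. In ch+ the list was lower still, with a median of −2.31 against ch- and 16 genes called lower. That comparison had 811 calls (6.25%), 347 of them lower. Late minus ch-, the list had a median of −2.46 and 19 genes called lower. That comparison had 2920 calls (22.5%), 1596 of them lower. Sox5 lay at 8.84 to 9.45 (median 9.08) in ch+.

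Among markers of other cell types around the marrow, skeletal muscle genes had the most calls. Of 24 smooth muscle and pericyte genes 22 were tested and 0 called by limma, or 1 in the fit of 7 groups (median −0.39). The number called lower was 1 with the 9 libraries alone and 2 for ML1 against ctrl. A negative difference was seen in 19 of the 22, against 48.8% of all tested genes. Kcnmb1, a subunit of the smooth muscle BK channel, had a log2 difference of −1.30 (adjusted p = 0.273), and Rgs5, a regulator of G protein signaling in pericytes and the most abundant gene, of −0.16. Among 23 skeletal muscle genes 12 were tested, 11 had a positive difference and 3 were called higher, against 1.13% of all tested genes. The median was 1.33, beside 0.01 over all tested genes, and 2 of those called lay below the filter in every control. The count was 6 in the fit of 7 groups or without ch- 528, 5 without ctrl 373, and 1 without ctrl 374 or 375 or with no filter. Pygm, the muscle glycogen phosphorylase and the most abundant gene of the list in ctrl, had a difference of 0.05 (adjusted p = 0.975), and the summed level of the list was 8.74 to 9.09 in ctrl and 9.17 to 10.29 in ch-. Ttn, the giant spring protein titin and the most abundant gene of the list in ch-, rose by 1.89 (SE 0.36, adjusted p = 0.0032), from 5.90, 5.41 and 5.68 to between 6.86 and 8.52. Mb, which encodes myoglobin, rose by 1.96 (adjusted p = 0.0309) and lost its call without ctrl 374 or 375 (adjusted p up to 0.115). Atp2a1, the calcium pump of fast muscle, rose by 2.16 (adjusted p = 0.0754) and lost its call whichever control was left out and without ch- 527, 529 or 544 (adjusted p up to 0.212). The endothelial list had 17 of 21 genes tested and 1 called lower (median −0.04). The called gene was Ly6a, which encodes Sca-1, at −1.02 (adjusted p = 0.0492), lost without ctrl 374, ctrl 375 or ch- 544 (adjusted p up to 0.293). Schwann cell genes had 10 of 12 tested and 0 called (median 0.09), with Ngfr, the p75 neurotrophin receptor, at −0.91 (adjusted p = 0.547). In the osteoclast list 6 of 11 genes were tested and 1 was called lower (median −0.16), Atp6v0d2, a proton pump subunit, at −1.51 (adjusted p = 0.0396), a call lost without ctrl 374 (adjusted p = 0.254). For ML1 against ctrl, 1 gene of the osteoclast list was called higher and 0 lower.

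**Figure D3:**
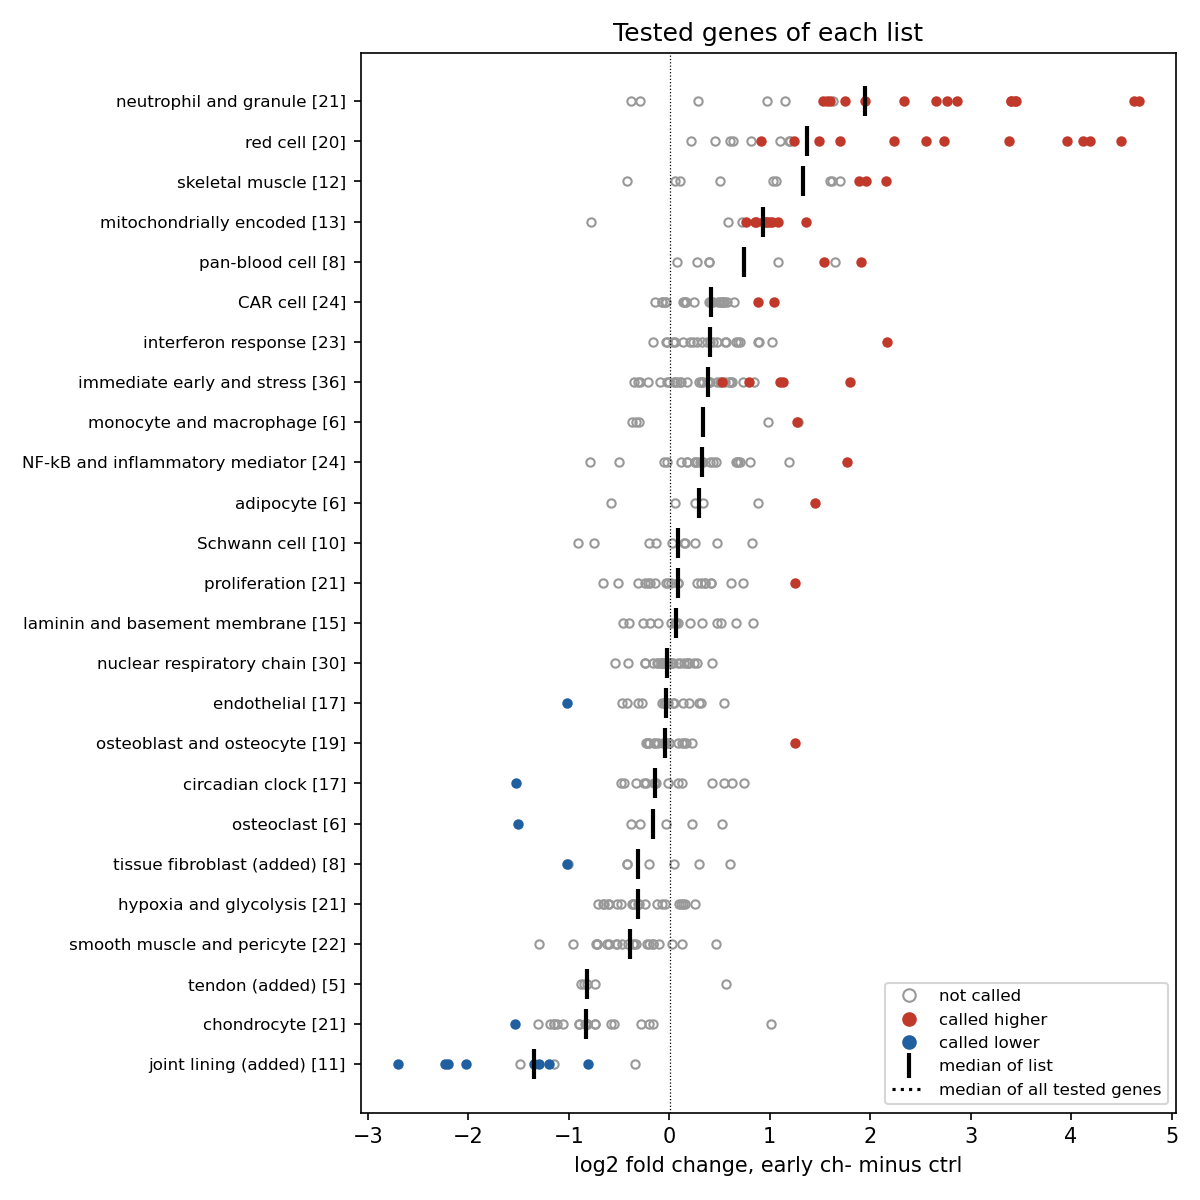
Each row is a gene list with at least 3 tested members, the sorting genes apart, each circle a member at its log2 fold change in ch- against ctrl, filled where called, with the median of the list marked. Neutrophil and granule genes have the highest median (1.94) and joint lining genes, a list written after the values were seen, the lowest (−1.35). The filter admits a gene through the libraries in which it is high, and 9 of the 21 tested neutrophil genes lay below it in every control. The order of the lists is thus a description only.

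Immediate early and stress genes had a higher list mean in ch- with the values as deposited, which was not tested. Of 37 such genes 36 were tested, with a median of 0.38. Among them 5 were called higher, against 1.13% of all tested genes. A positive difference was seen in 29, while 48.8% of all tested genes had a negative one. For 12 of them all 6 ch- libraries lay above ctrl, against 3.27% of all tested genes. The mean of the tested log2 values was 9.26 to 9.45 in ctrl and 9.65 to 9.91 in ch-, and the groups did not overlap. The number called was 12 in the fit of 7 groups, 1 after rescaling, 2 without ctrl 375 and 0 without ctrl 373. After rescaling to a common total, an alternative for list means chosen after seeing the data, they overlapped, at 9.14 to 9.30 and 9.29 to 9.67. Maff, a small MAF transcription factor, rose by 1.80 (SE 0.42, adjusted p = 0.0264), from 4.30, 5.01 and 5.10 to between 5.68 and 7.42, and lost its call without ctrl 373 (adjusted p = 0.149). Fos, of the AP-1 complex, measured 13.05, 13.32 and 13.23 in ctrl and 13.49 to 13.96 (median 13.69) in ch- and rose by 0.52 (SE 0.14, adjusted p = 0.0516). Fos lost its call whichever control was left out or without ch- 544 or 546 (adjusted p up to 0.231) and after rescaling to a common total (adjusted p = 0.251). Ier5 at 1.13, the heat shock gene Hspa1a at 1.10 and Klf2 at 0.79 were the others, and each lost its call in some of the fits without a library (adjusted p up to 0.169, 0.223 and 0.216) and after rescaling (adjusted p = 0.106, 0.12 and 0.122). For Ier5 and Klf2 the libraries were ctrl 373 and 375, and for Hspa1a ctrl 373, ctrl 374 and ch- 529. Egr1, the most abundant gene of the list, had a difference of 0.33 (adjusted p = 0.395) without overlap, and was called in the fit of 7 groups (adjusted p = 0.0417). The median of ch+ minus ch- was −0.34, with 10 genes called lower in ch+ and 1 higher, in a comparison with 811 calls (6.25%). Fos lay at 13.15 to 13.37 (median 13.25) in ch+.

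Hcar2, a receptor for nicotinic acid and beta-hydroxybutyrate, was the 1 gene called among 24 tested of 30 NF-κB and inflammatory mediator genes (median 0.33). The mean of the tested list was 6.44 to 6.61 in ctrl and 6.71 to 7.11 in ch-. Hcar2 measured 4.09, 4.04 and 4.84 in ctrl and 5.44 to 7.04 (median 6.04) in ch- and rose by 1.77 (SE 0.35, adjusted p = 0.00582), with all ch- libraries above ctrl. Socs3, a cytokine feedback inhibitor and the most abundant of that list, had a difference of 0.25. Rsad2, the antiviral enzyme viperin, was the 1 gene called among 23 tested of 25 interferon response genes (median 0.40; 3 called in the fit of 7 groups, 2 without ctrl 373 or ch- 529), whose mean was 5.79 to 6.18 in ctrl and 6.25 to 6.67 in ch-. After rescaling, the interferon means of ctrl and ch- overlapped (5.49 to 6.14 and 5.98 to 6.59), and those of the NF-κB list did not (6.29 to 6.41 and 6.47 to 6.88). Rsad2 measured 4.19, 5.42 and 4.24 in ctrl and 6.25 to 7.57 (median 6.50) in ch-, a rise of 2.17 (SE 0.43, adjusted p = 0.0049). Neither Hcar2 nor Rsad2 overlapped between the groups.

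Cell cycle, metabolic and basement membrane genes gave few calls. Of 24 proliferation genes 21 were tested and 1 was called higher (median 0.08), Tyms, which makes thymidylate for DNA synthesis, at 1.25 (adjusted p = 0.0325), a call lost without ctrl 374 (adjusted p = 0.174), with the 9 libraries alone (adjusted p = 0.156) and for ML1 against ctrl (adjusted p = 0.171). Mki67, the antigen Ki-67 of cycling cells, had a difference of 0.74 (adjusted p = 0.195), which passed the test with the 9 libraries alone. No hypoxia and glycolysis gene was called by limma among 21 tested of 23 (median −0.31), with Bnip3, a mitophagy receptor, at −0.71 and Ldha, the lactate dehydrogenase, at −0.36. No laminin and basement membrane gene was called either among 15 tested of 20 (median 0.07; 1 called in the fit of 7 groups), with the perlecan gene Hspg2 at −0.19. By cell line, 2 of this list were called lower for HL60 against ctrl and 1 was called higher for ML1 against ctrl. Over all tested genes limma gave 1549 at an unadjusted p below 0.05. Among 19 circadian clock genes 17 were tested and 1 was called lower (median −0.14). Nr1d1, the heme-sensing repressor REV-ERBα, measured 9.47, 9.95 and 9.50 in ctrl and 7.45 to 8.55 (median 8.14) in ch-, and fell by 1.52 (SE 0.28, adjusted p = 0.00258). Its groups did not overlap, and the labels give no hour of sampling.

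Outside the lists, the largest rises among genes with a ctrl mean of at least 6 began with Mxd1, a repressor that competes with MYC for its partner MAX. Mxd1 measured 6.15, 5.79 and 6.66 in ctrl and 7.41 to 8.42 (median 8.01) in ch- and rose by 1.76 (SE 0.25, adjusted p = 7.36e-05), with no overlap. The remaining rises in this group each rested on particular libraries. Ddit4l, an inhibitor of mTOR signaling, rose from 7.44, 6.25 and 5.89 in ctrl to between 7.35 and 8.91 (median 7.94) in ch- (adjusted p = 0.00845, lost without ctrl 375 at 0.134) and lay at 6.31 to 7.63 (median 6.82) in ch+. Cd24a, a surface sialoglycoprotein, rose by 1.38 (adjusted p = 0.0396), and Rel, a subunit of NF-κB, by 1.22 (adjusted p = 0.0424). Both calls were lost without ctrl 374 or 375 (adjusted p up to 0.298 and 0.279). Rgs2, a regulator of G protein signaling, rose by 1.25 (adjusted p = 0.0362, lost without ctrl 373 at 0.259). Ksr1, a scaffold of the MAP kinase cascade, rose by 1.19 (adjusted p = 0.0456), a call lost whichever control was left out or without ch- 544 (adjusted p up to 0.169). Enpep, an aminopeptidase that cleaves angiotensin II, was called higher (adjusted p = 0.077). Ctrl 373 lay at 8.83 for Enpep, above all ch- libraries, and the difference ran from 0.71 to 1.95 when single libraries were left out. Its call was lost in 7 of those 9 fits, all but those without ctrl 373 and ch- 528 (adjusted p up to 0.467). Of the genes named by rule, Cd24a, Rel, Rgs2, Ksr1, Enpep, Gldn, Lyz2, Mepe, Ly6a, Atp2a1 and Xist lost their calls with no filter on low values.

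By cell line, HL60 ch- against ctrl gave 204 calls (1.57%) and ML1 ch- against the same controls 304 (2.34%). For S100a9 the log2 difference was 4.48 with HL60 and 4.88 with ML1, for mt-Co2 it was 1.46 and 1.25, for Prg4 −2.94 and −2.46, and for Fgl2 −2.41 and −2.59. Both values in each pair share the 3 controls. Among named genes called with both lines together, Ddit4l, Cd24a, Rel, Ksr1, Enpep, Gldn, Lyz2, Mepe, Grem1 and Pappa were not called with HL60, Rgs2, Tyms, Atp6v0d2, Ly6a, Mb, Ier5 and Klf2 were not called with ML1, and Atp2a1 was called with neither. Compared directly, HL60 and ML1 ch- cells differed in 7 genes (0.0539%), 5 higher with HL60 and 2 lower. Postn, which encodes the matrix protein periostin, measured 12.58, 12.46 and 11.96 in the HL60 libraries and 11.12, 11.66 and 11.06 in the ML1 libraries, a difference of 1.05 (SE 0.18, adjusted p = 0.0503). Ctrl libraries lay between at 11.72 to 12.06, overlapping the HL60 range. Mfap4, a microfibril protein, Thbs2, which encodes thrombospondin 2, and Col12a1, a collagen that decorates fibrils, were also higher with HL60, and Gemin7, of the SMN complex, was lower. The count was 0 without ch- 527, 543 or 546, where limma gave 907, 907 and 1022 genes at an unadjusted p below 0.05, and 2 without 528.

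The gene with the largest difference of all is not a protein-coding gene. AY036118, annotated as a long noncoding RNA, lies on the minus strand of chromosome 17 from 39847113 to 39848035, inside the rRNA gene CT010467.1, which spans 39846353 to 39848827 on the same strand. AY036118 measured 17.25, 15.43 and 19.01 in ctrl, 15.30 in ch- library 544 and 1.44 to 1.87 in the other ch- libraries, a log2 difference of −13.32 (SE 1.70, adjusted p = 1.5e-05), or −15.60 without library 544. All ch+ libraries (1.27 to 1.76) and late libraries (0.94 to 1.51) were near the floor. CT010467.1 had the highest value of any gene in every library and differed by 0.20 (adjusted p = 0.84). It held 29.7% to 34.2% of the summed signal in ctrl and 30.8% to 38.6% in ch-. Reads from the shared stretch match both genes, and how they were divided between them was not tested.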

How the data were processed

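RNA-seq of sorted Nes low cells was measured in 21 libraries, of which 6 early ch- and 3 ctrl libraries were compared. The authors aligned reads to mm10 (STAR 2.5.1b), counted them per gene (RSEM 1.2.29), and normalized and regularized them (DESeq2 1.10.1 by the labels, another version in the paper). The deposited values are read as log2, since they run from −2.33 to 22.44, although the paper names a log10 transformation. Depth per library is unknown, so precision comes from the replicates.

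All libraries entered a limma 3.58.1 (R 4.3.3) fit of 4 groups, with a mean-variance trend, two-sided tests and Benjamini-Hochberg adjustment over the 12980 genes with a mean of at least the log2 of 10. Cell lines were compared in a fit of 7 groups. This procedure was tested on simulated data, where it found most large changes and missed many small ones, so a list with few calls can still hold changes. Symbols and GRCm38 positions come from Ensembl genes, and 12944 of the tested genes had a symbol. Figures were drawn with Python 3.11.15.

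Genes are named by rule: the 10 largest non-overlapping changes in each direction, the 10 largest at a ctrl mean of at least 6 outside blood and osteoclast lists, the most changed and most abundant (by mean over the 9 libraries) tested member of each of 27 lists, the 5 largest differences between cell lines in each direction, and the sorting and sex-linked genes. Withheld items are not reported here. Other genes, and the lists of joint lining, tendon and tissue fibroblast genes, were chosen after their values were seen. The members and lists were chosen with earlier results of these data known. Alternatives were other filters, normalizations, variance settings, thresholds, sample weights and subsets of libraries, with counts per list added after seeing the data. ML1 late libraries, whose treatment label reads unengrafted, were kept as late by their titles.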

Additional observations from a re-analysis of the deposited data

Results flagged for a closer look

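Among the 82 named genes that were tested, 5 had a single ch- library far from the other 5, by a gap above Dixon's critical value for 6 values, and chance alone gives about 1 in 20. Slc4a1 measured 6.43 in library 543 against 7.47 to 7.62 in the others. AY036118, inside the rRNA locus, measured 15.30 in library 544 against 1.44 to 1.87. Stac2 measured 3.65 in library 543 against 2.84 to 3.08. Htra4 was at 9.06 in library 528 against 7.54 to 8.06, and Enpep was at 8.01 in library 528 against 8.44 to 8.68.

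The 7 genes that differed between HL60 and ML1 ch- cells in limma were also singled out. On the log2 scale, HL60 minus ML1, the differences were 2.08 for Mfap4 (adjusted p = 0.0883), 1.64 for Gm38211 (adjusted p = 0.0883), 1.32 for Thbs2 (adjusted p = 0.0883), 1.05 for Postn (adjusted p = 0.0503) and 0.90 for Col12a1 (adjusted p = 0.0883). They were −2.05 for Gemin7 (adjusted p = 0.0732) and −0.88 for Csmd1 (adjusted p = 0.0883).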

How the results depend on the processing

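The 249 calls (147 higher, 102 lower) stayed within 1.5 times under most alternatives, such as 247 under quantile normalization and 215 after rescaling. The calls higher in ch- were 94 with no filter and 90 after rescaling, where the median log2 difference over tested genes went from 0.01 to −0.06. Sample weights gave 153 calls, 92 higher and 61 lower. An adjusted p below 0.05, a stricter choice by construction, gave 156 calls, 58 of them lower. Without libraries 543 and 544, an alternative chosen after seeing the data, there were 162 calls, 93 higher. Leaving out each library in turn gave 136 to 280 calls, 85 to 176 higher and 43 to 104 lower. The 7 genes that differed between cell lines became 1 when the 9 libraries were fitted alone, and 0 to 9 when each library was left out, with limma calling 907, 907 and 1022 genes at an unadjusted p below 0.05 where the count was 0. Where fewer libraries do not account for a change, the cause was not tested. Rescaling kept 190 of the 249 genes, leaving out ctrl 374 kept 115 and leaving out ctrl 375 kept 114. No named gene turned its direction where it was called. A change of the pseudocount was not run, since the values are logs. No paired analysis was possible because the labels do not match libraries by mouse. The unknown depth leaves low values without a counting error, and their regularization understates changes: the median SD was 0.04 at means from −2 to 0 and 0.59 from 4 to 6. With 3 controls, 1 library can carry a call.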
